A study of Drosophila melanogaster with 30 samples.

Results

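The proteasome subunit genes of Drosophila melanogaster were followed in larvae whose transgene-encoded histone H4 could not be acetylated at lysine 16. They were taken as every gene of the RefSeq annotation (Release 6, the dm6 build) whose symbol begins with Prosalpha, Prosbeta, Rpn or Rpt followed by a digit, which gave 48 genes. Of these, 32 are constitutive subunit genes and 16 are paralogues, whose symbols end in R or T with or without a digit after it. An RNA table entry was given a gene's name where the entry and the gene covered each other by more than 0.9 of their lengths. On that rule 30 of the 48 genes had an RNA value in males, among 9718 named genes, and 29 had one in females, among 9491; 28 had a value in both sexes. The choice of genes used no measured value.

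RNA was compared between H4K16R and HWT wing imaginal discs of each sex, with 3 libraries per genotype and sex, 12 in all, and 30 discs per library. The larvae of these libraries were moved 48 hours after egg laying. All of these third-instar wandering larvae carried the homozygous histone cluster deletion ΔHisC, 1 copy of it with UAS-2xEYFP and the other with twi-GAL4, a driver under the control of the twist promoter that marked them with fluorescence. Their replication-dependent histones came from a transgene of 12 histone repeats of 5 kb: in H4K16R the H4 genes of the transgene encode arginine in place of lysine 16, and in HWT (histone wild type) they are unchanged. The repeat number and length are recorded for the Repli-seq libraries and not for the RNA libraries. His4r, an H4 gene outside the cluster, is not part of the deletion. Replication timing came from Repli-seq, which sets the coverage of DNA from sorted S-phase nuclei over that from G1 nuclei. It used wing discs of H4K16R and HWT larvae of both sexes and of H3K9R females, whose transgene changes lysine 9 of histone H3 to arginine. There were 2 S-phase libraries and 1 G1 library in each of these groups. The labels do not say whether replicates came from separate crosses, and the p-values therefore reflect only how these libraries vary, which may be technical.

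The proteasome is the main protease of the cytosol and nucleus and degrades proteins that carry ubiquitin chains. Its core particle stacks rings of alpha subunits, which gate the entrance, around rings of beta subunits, which hold the proteolytic sites. Its regulatory particle consists of a base, where a ring of ATPases (Rpt) unfolds the substrate and feeds it inward, and a lid of Rpn subunits that removes ubiquitin. Acetylation of H4 lysine 16 by the male-specific lethal complex marks the single X chromosome of male flies and accompanies its dosage compensation. The proteasome draws its subunits from both the X and the autosomes. Of the 32 constitutive genes 4 are X-linked: Prosalpha4, and the genes of 3 of the 6 base ATPases, Rpt3, Rpt4 and Rpt6. The other 28 are autosomal, 13 in the core and 15 in the regulatory particle.

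The authors' deposited tables give edgeR's log2 fold change and adjusted p for each interval, with no value per library, so expression levels, sequencing depth and the spread between libraries are not known here. The numerator is not named and was read as H4K16R over HWT. Genes were called at an adjusted p under 0.05. In males 15.6% of 11505 entries were called in either direction, and in females 0.974% of 10775. The median of all X-linked named genes was -0.44 in males and -0.02 in females, and the median of all autosomal named genes was 0.08 and -0.01. All 13 wing disc epithelium markers examined had an entry in both sexes. Fold changes cannot tell fewer cells of a type from less RNA per cell.

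In H4K16R against HWT males, Rpt3, Rpt6 and Prosalpha4 on the X fell, and Prosbeta3, Prosbeta5, Prosbeta6, Rpn3 and Rpn9 on autosomes rose. Of the 4 X-linked genes, 3 were called lower and none higher in the authors' deposited table, where 47.1% of all X-linked named genes were called lower. Of the 25 measured autosomal constitutive genes, 5 were called higher and 0 lower (2 from the lid and 3 from the beta ring), where 6.2% of all autosomal named genes were called higher and 3.38% lower. By edgeR's p before adjustment, recovered here, 16 of the 25 were higher and 0 lower at p under 0.05, against 13.5% and 7.2% of all autosomal named genes. These shares are not matched for precision: the median recovered standard error was 0.095 for the 25 genes and 0.171 for all autosomal named genes. Among the called genes the largest fall was 35.0% (Rpt3) and the largest rise 30.5% (Prosbeta5). With Holm adjustment none of the 8 calls remained, and without entries that overlap another 4 genes were called. Centred on the median of all autosomal entries and tested again against the recovered standard errors, an alternative chosen after seeing the data, 3 autosomal genes remained higher and Prosbeta3 and Rpn3 did not, while the 3 X-linked falls stayed called.

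**Figure D1:**
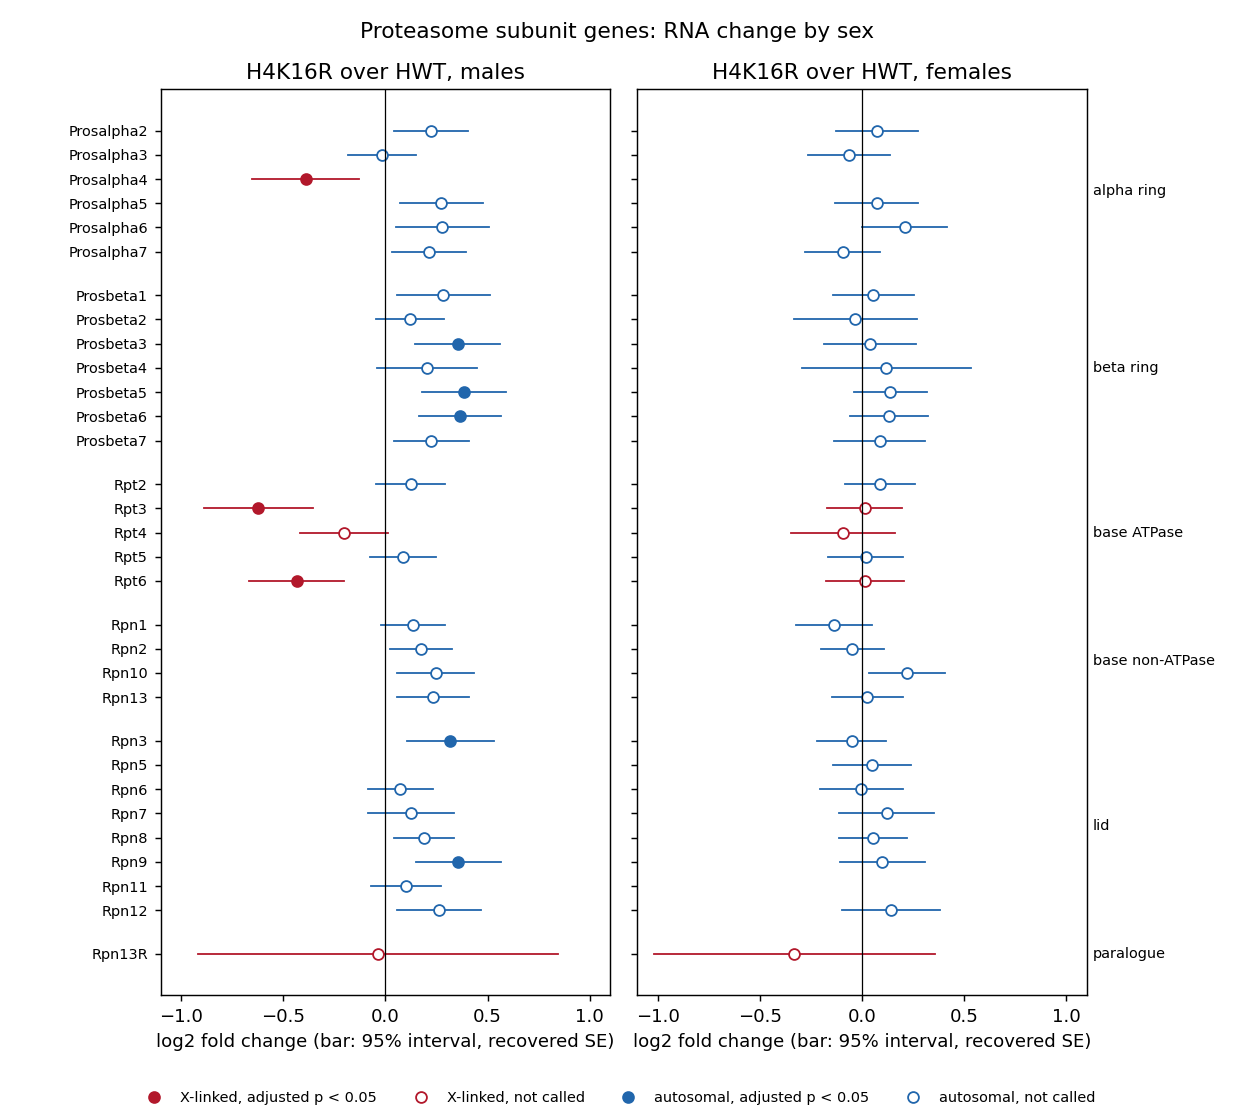
Log2 fold change of H4K16R over HWT for each measured proteasome gene in males (left) and females (right), grouped by role. Points are the authors' deposited values, bars are 95% intervals from standard errors recovered here, red marks X-linked and blue autosomal genes, and filled points have an adjusted p under 0.05. In males 4 X-linked constitutive genes lie left of 0 and 24 of 25 autosomal ones right of it, while in females no point is filled.

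In the alpha ring, 5 autosomal genes and the X-linked Prosalpha4 had values in males. Prosalpha4 (X:16276270-16277587) fell by 0.39 on the log2 scale in the authors' deposited table (95% interval -0.65 to -0.13, adjusted p = 0.028), a ratio of 0.764. Its value was higher than that of 57.1% of all X-linked named genes, so it stood close to the middle of the X chromosome. No female value of its own exists, because the female entry that covers it spans 13285 bases and 4 genes within it, at 0.06. Among the autosomal alpha genes, Prosalpha6 had the highest male value of the authors' deposited table at 0.28 (adjusted p = 0.083) and also the highest female value at 0.21 (adjusted p = 0.42). Prosalpha3 had the lowest autosomal value of all measured subunit genes in males, -0.018 (adjusted p = 0.92), and -0.06 in females. Prosalpha7 stood at 0.21 in males and at -0.10 in females, the lowest alpha value there. Prosalpha5 missed the threshold in males with an adjusted p of 0.052 at 0.27. The median of the 5 autosomal alpha genes was 0.22 in males.

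The beta ring is encoded entirely on autosomes, and all 7 of its genes lay above 0 in males, with a median of 0.28. Its 3 catalytic subunits are Prosbeta1 (caspase-like), Prosbeta2 (trypsin-like) and Prosbeta5 (chymotrypsin-like). Prosbeta5 (2R:10819978-10821178) rose the most of all measured subunit genes, by 0.38 in the authors' deposited table for males (95% interval 0.18 to 0.59, adjusted p = 0.0036), a ratio of 1.30. The structural subunits Prosbeta6 (3L:16609400-16610418; 0.37, adjusted p = 0.0050) and Prosbeta3 (3R:9005313-9006226; 0.35, adjusted p = 0.0095) also rose in that authors' deposited table. Prosbeta1 stood at 0.28 with an adjusted p of 0.079, and Prosbeta2 had the lowest beta value, 0.12 with an adjusted p of 0.37. The catalytic subunits were therefore spread over the whole range of the ring. In females the authors' deposited table gave 0.14 for Prosbeta5, 0.13 for Prosbeta6, 0.04 for Prosbeta3 and -0.03 for Prosbeta2, the highest and the lowest beta values being Prosbeta5 and Prosbeta2 as in males.

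The base ATPase genes measured in males stood between -0.62 and 0.12. Rpt3 (X:11125101-11126785) fell by 0.62 in the authors' deposited table for males (95% interval -0.89 to -0.35, adjusted p = 2.0e-04), a ratio of 0.650. Rpt6 (X:21316052-21317663) fell by 0.43 (95% interval -0.67 to -0.20, adjusted p = 0.0036), a ratio of 0.740, in the same authors' deposited table. Rpt4 (X:6289470-6291245) stood at -0.20 in the authors' deposited table and was not called (95% interval -0.42 to 0.01, adjusted p = 0.22). The 2 measured autosomal ATPase genes, Rpt2 and Rpt5, stood at 0.12 (adjusted p = 0.37) and 0.09 (adjusted p = 0.54). Within the ring, whose subunits assemble in equal numbers, Rpt3 had the lowest and Rpt2 the highest measured value in males. Their intervals do not overlap, but the pair was chosen as the extremes, and the interval of Rpt2 (-0.05 to 0.29) includes 0. The male Rpt2 entry shares 81.7% of its length with another entry. In females the 5 measured ATPase genes lay between -0.09 (Rpt4) and 0.09 (Rpt2) in the authors' deposited table, and Rpt3 and Rpt6 stood at 0.013 and 0.015.

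Rpt3 was lower than most X-linked genes, and Rpt4 was nearer to 0 than most. In males 24.8% of all X-linked named genes had a lower value than Rpt3, 50.4% a lower one than Rpt6 and 77.5% a lower one than Rpt4. Among the 80 named genes within 500 kb of Rpt3 the median male log2 fold change was -0.43, and 20 of them were lower than Rpt3. The same median was -0.53 over 46 neighbours of Rpt6, -0.33 over 92 neighbours of Rpt4 and -0.49 over 112 neighbours of Prosalpha4. The Rpt6 entry shares 1471 bases, 91.3% of its length, with the entry of CG1801, which stood at -0.38 in the authors' deposited table for males. The Rpt4 entry shares 93 bases with that of wuho, which was at -0.53. The RNA libraries were stranded, per the labels' protocols, but no source used here says whether reads were counted by strand, so reads in the shared bases cannot be assigned. The entries of Rpt3 and Prosalpha4 overlap no other entry in males.

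The 4 non-ATPase subunits of the base are the scaffolds Rpn1 and Rpn2 and the ubiquitin receptors Rpn10 and Rpn13; Rpn1 also docks ubiquitin shuttle factors. All 4 lay above 0 in the authors' deposited table for males, between 0.14 for Rpn1 and 0.25 for Rpn10, with a median of 0.20, and none was called. Rpn13 came closest, at 0.23 with an adjusted p of 0.054. In females Rpn10 had the highest value of all measured subunit genes, 0.22 (adjusted p = 0.30), and Rpn1 the lowest constitutive one, -0.14 (adjusted p = 0.63), in the authors' deposited table.

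In the lid, which removes ubiquitin chains from substrates through the metalloprotease Rpn11, 7 of 8 genes had male values and all lay above 0, with a median of 0.19. Rpn9 (3R:23731375-23733462) rose by 0.36 (95% interval 0.15 to 0.57, adjusted p = 0.0083) and Rpn3 (2L:19051790-19053681) by 0.32 (95% interval 0.11 to 0.53, adjusted p = 0.026) in the authors' deposited table. Rpn12 followed at 0.26, and Rpn6, a subunit that braces the base against the core, had the lowest value of the lid at 0.07 (adjusted p = 0.60). Rpn11 stood at 0.10 and its structural partner Rpn8 at 0.19, neither called. The female values of the authors' deposited table were -0.05 for Rpn3, the lowest of the lid, 0.10 for Rpn9 and 0.14 for Rpn12, the highest. The Rpn9 entry shares 125 bases with the entry of CG10365, Rpn7 shares 79.0% of its length with CG34376 and Rpn8 61.8% with Slik. Rpn3 overlaps no other entry.

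Taken by particle, the medians of the autosomal genes in males were 0.25 over 12 core genes and 0.18 over 13 regulatory genes, against 0.08 over all 8042 autosomal named genes. Over all 25 the median was 0.22, and 0.15 once centred on the median of all autosomal entries. By direction, 24 of 25 autosomal genes were above 0, against 60.8% of all autosomal named genes, and 23 of 25 were above the median of all autosomal entries, 0.076. Prosalpha3 was below 0, and Rpn6 joins it once values are centred on that median. In absolute size the autosomal values ended at 0.38, and 81.5% of all autosomal named genes lay below Prosbeta5. The recovered standard errors of the subunit genes were small, with a median of 0.095 against 0.171 for all autosomal named genes. The 11 autosomal genes whose entries overlap no other had a median of 0.23, and all 11 were above 0.

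**Figure D2:**
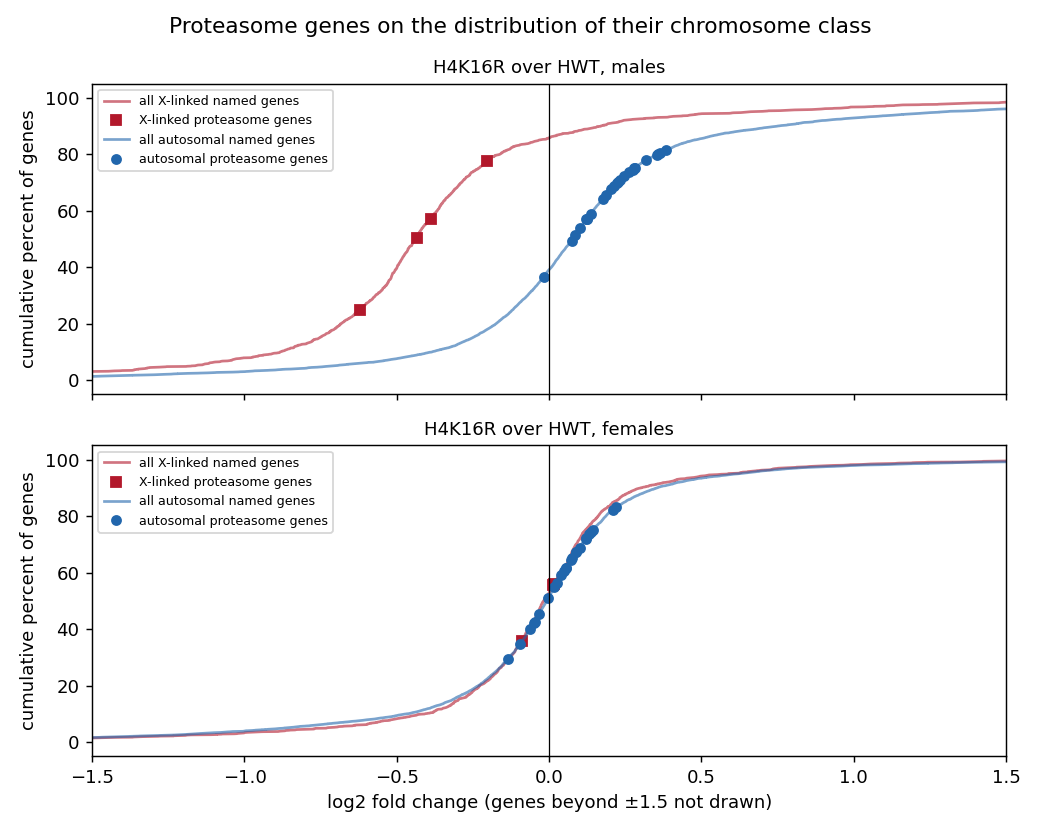
Cumulative percent of named genes by log2 fold change of H4K16R over HWT, in males (top) and females (bottom), for X-linked and autosomal genes, with each constitutive proteasome gene marked on the curve of its own chromosome class. In males the 4 X-linked genes lie between 24.8% and 77.5% of the X-linked curve, and the 25 autosomal genes lie between 36.7% and 81.5% of the autosomal one.

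Markers of other tissues moved in the same comparison. Of 7 measured fat body markers, 6 were called lower in the authors' deposited table for males, with a median of -2.56 and a range of -2.88 to 0.33. Of the 5 autosomal ones 4 were called lower, where 3.38% of autosomal named genes were. The others were the X-linked Lsp1alpha, where 47.1% of X-linked named genes were called lower, and apolpp on chromosome 4. The 5 measured salivary gland markers had a median of -2.89 (range -3.95 to -2.23), none of them called. Of the 13 wing disc epithelium markers 4 were called lower in males: ct, sd and bi, which are the 3 X-linked ones, where 47.1% of X-linked named genes were called lower, and ap, 1 of 10 autosomal ones, where 3.38% were. The median over all 13 was -0.09 (range -0.49 to 0.10). Among adult muscle precursor markers the X-linked kirre was called higher, where 0.885% of X-linked named genes were. The autosomal Ama was called lower, where 3.38% of autosomal named genes were, and the median over 7 genes was -0.05. No measured marker of hemocytes, trachea or male germline was called in males. In females 1 of 7 fat body markers was called lower, where 1.06% of autosomal named genes were called in either direction. It was the autosomal FASN1 (-1.13, adjusted p = 0.0083 in the authors' deposited table), which stood at 0.33 in males and was not called there. The other fat body markers had female adjusted p between 0.61 and 0.85, and the median over all 7 was -0.94. In females 0 of 13 wing disc markers were called, with a median of 0.07. The tables give no levels, so the part of these tissues in the proteasome values was not tested.

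In females no proteasome gene was called among 29 measured, where edgeR called 1.19% of X-linked and 1.06% of autosomal named genes. At an unadjusted p under 0.05 there were 2, Rpn10 and Prosalpha6, both autosomal and above 0, where 5.6% of all autosomal named genes were. Of the 25 autosomal constitutive genes 18 were above 0, against 48.6% of all autosomal named genes, with a median of 0.06 against -0.01. The recovered standard errors of the measured autosomal genes had a median of 0.095 in males and 0.101 in females. Ties are more frequent among female adjusted p, with 2893 distinct values over 10775 entries against 6807 over 11505 in males. Because recovered p is an upper bound in ties, these medians do not show that precision was equal. The 3 X-linked genes measured in females, Rpt3, Rpt4 and Rpt6, had adjusted p between 0.86 and 0.98.

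**Figure D3:**
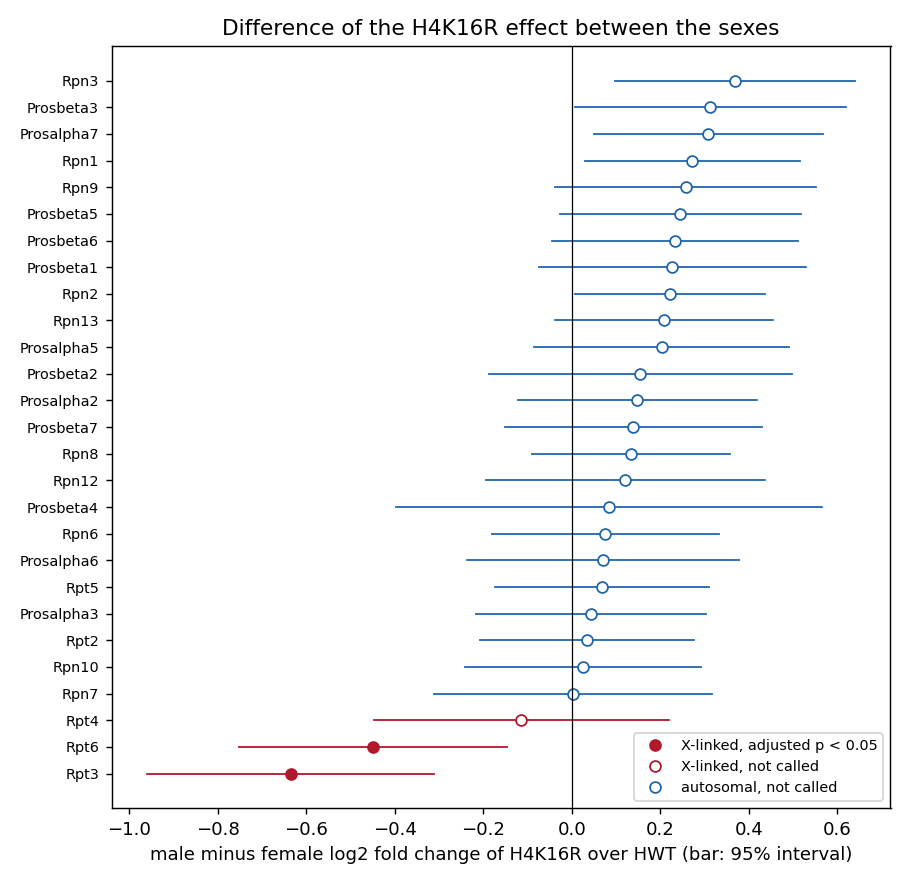
Male minus female log2 fold change of H4K16R over HWT for the 27 constitutive proteasome genes measured in both sexes, sorted by size, with 95% intervals. Red marks X-linked and blue autosomal genes, and filled points have an adjusted p under 0.05. Rpt3 and Rpt6 are filled at the bottom, and the 24 autosomal genes all lie right of 0 with no filled point.

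The difference between the sexes was tested for every gene named in both tables, with a z test on the male minus female log2 fold change. Of the 3 X-linked genes, 2 had a lower effect in males, where this held for 26.1% of all X-linked named genes. The difference was -0.63 for Rpt3 (95% interval -0.96 to -0.31, adjusted p = 0.0047) and -0.45 for Rpt6 (95% interval -0.75 to -0.15, adjusted p = 0.047). For Rpt4 it was -0.11 (95% interval -0.45 to 0.22, adjusted p = 0.77). Neither call remained with Holm adjustment or with standard errors inflated by 1.2, and with overlapping entries left out Rpt6 is not tested and Rpt3 stayed called. None of the 24 autosomal genes had a called difference, where 4.1% of all autosomal named genes had one. At an unadjusted p under 0.05 there were 5 (15.7% of all autosomal named genes): Rpn3, Prosbeta3, Prosalpha7, Rpn1 and Rpn2, all higher in males. Rpn3 came closest to the threshold, with a difference of 0.37 (95% interval 0.10 to 0.64, adjusted p = 0.077). All 24 differences were above 0, against 58.7% over all autosomal named genes, with a median of 0.15 against 0.07. With each table centred on its autosomal median, 17 of the 24 were above 0, with a median of 0.07. The called autosomal rises in males were therefore not shown to differ from the female values gene by gene. Across the 24 genes the male and female fold changes, which share no library, had correlations of 0.451 (Pearson) and 0.477 (Spearman). Over 7411 autosomal named genes these were 0.227 and 0.0731. The genes are not independent, and the 2 sets are not matched for precision. In males the median recovered standard error was 0.095 for the 25 measured autosomal subunit genes and 0.171 for all autosomal named genes. Whether the correlations differ was not tested.

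Among genes that build, regulate or feed the proteasome, the called falls in males were X-linked and the called rises autosomal. Calls over all named genes leaned the same way in males. Of X-linked ones 47.1% were called lower and 0.885% higher, and of autosomal ones 6.2% were called higher and 3.38% lower. The list of assembly, activator and docking factors had 8 of 10 genes measured in males. PI31 (0.39, adjusted p = 0.021), a regulator that binds the core, and Usp14 (0.27, adjusted p = 0.043), a deubiquitinase that docks on the regulatory particle, rose in the authors' deposited table. Ubqn and rngo, X-linked genes for shuttle factors that carry ubiquitinated proteins to the proteasome, both fell by 0.49 (adjusted p = 1.1e-04 and 0.0017) in the authors' deposited table. Pomp, the chaperone of core assembly, stood at 0.22, Sem1, a small lid subunit, at 0.19, Uch-L5, a deubiquitinase, at 0.08 and Rad23, another shuttle factor, at 0.01, none of them called in the authors' deposited table. In the list of ubiquitin, E1 and p97 genes, 8 of 9 were measured in males. There p47, an adaptor of p97, rose by 0.39 (adjusted p = 0.011) and Uba1, the ubiquitin-activating enzyme, by 0.24 (adjusted p = 0.014), while Ubi-p5E, an X-linked ubiquitin gene, fell by 0.28 (adjusted p = 0.015), all from the authors' deposited table for males. Ubi-p5E stood at 0.35 in females (adjusted p = 0.054).

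The transcription factor cnc, the fly counterpart of mammalian Nrf factors, induces proteasome genes when proteasome activity is low. Of the 6 genes on its list, all measured, 1 was called in males, the X-linked rngo, which is also on the list above. That is close to the 15.6% called over all male entries, and 47.1% of X-linked named genes were called lower. The factor itself stood at -0.09 and its partner maf-S at -0.19, while Keap1, its inhibitor, stood at 0.39 with an adjusted p of 0.051 in the authors' deposited table. Pngl, the fly N-glycanase, stood at 0.23, and sip3, a ubiquitin ligase of the endoplasmic reticulum, at -0.04. None of the genes on these 3 lists was called by edgeR in females, and 2 were at an unadjusted p under 0.05, Ubi-p5E and Keap1 (0.35, adjusted p = 0.35).

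Called rises on autosomes and called falls on the X also occurred in the CCT chaperonin, while eIF3 had a fall alone and COP9, with 5 genes measured and none on the X, had no call. The shares to read these counts against are 47.1% of X-linked named genes lower and 6.2% of autosomal ones higher. Of the 8 CCT genes, which encode a cytosolic folding machine that is also built from different ring subunits, CCT4, CCT1 and CCT8 rose by 0.26, 0.24 and 0.23, and the X-linked CCT6 and CCT2 fell by 0.38 and 0.33 in the authors' deposited table for males. Of 13 measured eIF3 genes, which share domain types with the lid, none was called higher and the X-linked eIF3g1 fell by 0.42. None of 5 measured genes of the COP9 signalosome, the closest relative of the lid, was called by edgeR in either direction, and 0 were at an unadjusted p under 0.05. The autosomal medians in males were 0.18 for CCT, 0.11 for eIF3 and 0.15 for COP9, against 0.22 for the proteasome genes and 0.08 for all autosomal named genes. Whether these medians differ from each other was not tested. No gene of these 3 lists was called in females, where edgeR gave 0 of them at an unadjusted p under 0.05.

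**Figure D4:**
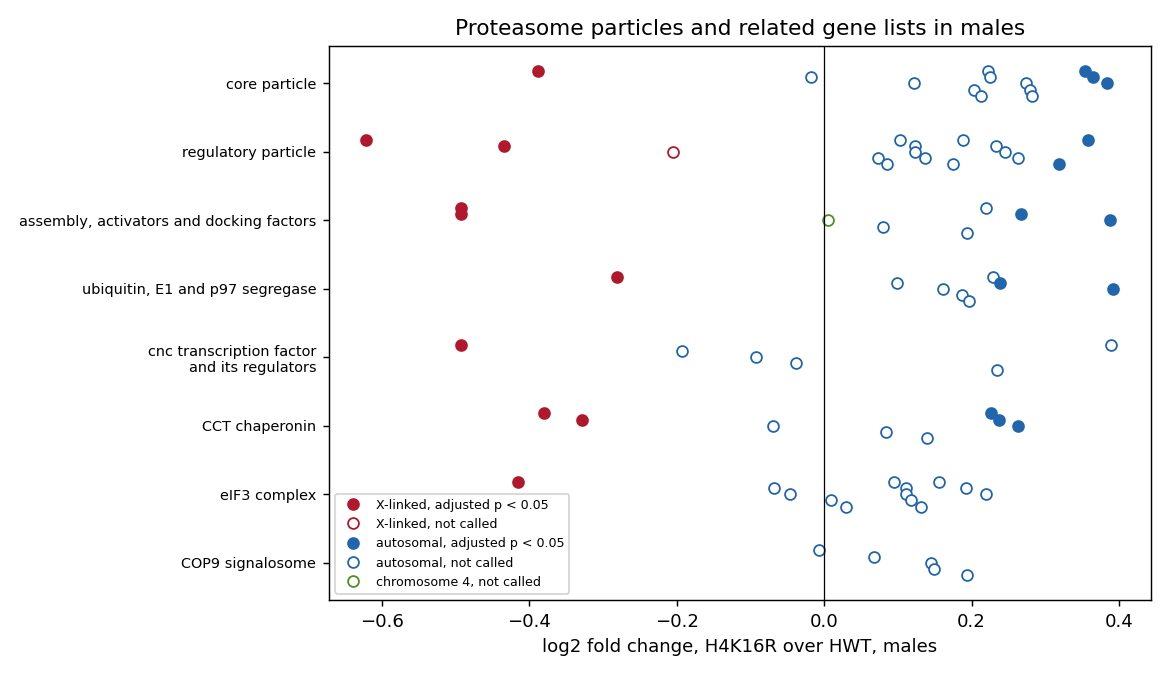
Log2 fold change of H4K16R over HWT in males for the genes of the 2 proteasome particles and of 6 related lists, each point a gene, red X-linked, blue autosomal and green on chromosome 4, filled at an adjusted p under 0.05. The red points lie left of 0 in every list that holds one, and the blue points of the 2 particles lie right of 0 except Prosalpha3 at -0.018.

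Of the 32 constitutive genes 3 had no entry of their own in males (Prosalpha1, Rpn5 and Rpt1) and 4 had none in females (Prosalpha1, Prosalpha4, Rpn11 and Rpt1). Rpt1, the sixth base ATPase, lies inside an entry of which it fills 41.2% in males, with a value of 0.14 (adjusted p = 0.27) in the authors' deposited table and -0.05 in the female one. Rpn5, a lid scaffold, fills 79.9% of its male entry, which stood at 0.12 (adjusted p = 0.34), and had its own female value of 0.05. Rpn11 lies in a female entry of 13674 bases with 7 genes within it, at -0.05. Prosalpha1 is touched over 1.24% of its length by an entry of the neighbouring gene phr and has no value. The 16 paralogues were nearly all without a value: 15 had no matching entry in either sex, 12 of them with no overlapping entry at all and 3 within longer entries. The exception was Rpn13R, an X-linked gene that lies wholly inside the entry of rg, at -0.04 in males and -0.33 in females with recovered standard errors of 0.449 and 0.351 from the authors' deposited table. Paralogues of this kind are known in flies mainly for expression in the testis. A gene without an entry is not thereby shown to be silent.

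Replication timing gives a second readout at all 48 loci. Values are log2 S/G1 in the 100 kb window nearest to the gene's midpoint, 1 per group in the authors' deposited tables, higher where DNA replicates earlier, with no replicate error and hence no test. The 4 X-linked constitutive genes replicated early in HWT males: their values exceeded those of between 65.2% and 97.9% of all X-linked named genes. In males all 4 had lower values in H4K16R than in HWT. Rpt3 had 0.082 in H4K16R and 0.152 in HWT, Rpt4 had 0.10 in H4K16R and 0.145 in HWT, and these were the earliest of the 4 in HWT. Prosalpha4 had 0.078 in H4K16R and 0.122 in HWT, and Rpt6 had 0.012 in H4K16R and 0.091 in HWT. The differences ran from -0.079 to -0.044 with a median of -0.058, against -0.026 over all X-linked named genes, of which 73.0% were below 0. None reached 0.1 in size.

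In females the sign at these 4 loci depended on the HWT profile used, since the authors' deposited tables hold 2 that differ. Within the table that holds H4K16R, all 4 had higher values in H4K16R than in HWT. Rpt3 had 0.099 in H4K16R and -0.004 in HWT of the authors' deposited table, a difference of 0.104 and the only one of a constitutive gene to reach 0.1. Rpt4 had 0.10 in H4K16R and 0.039 in HWT, Prosalpha4 0.084 in H4K16R and 0.073 in HWT, and Rpt6 0.008 in H4K16R and 0.004 in HWT. The labels list no second set of female HWT libraries, so the 2 profiles are not known to be independent. The HWT values in the H3K9R table were 0.130 at Prosalpha4, 0.083 at Rpt4, 0.039 at Rpt6 and 0.0073 at Rpt3. Set against these, a comparison chosen after seeing the data, 2 of the 4 loci were above 0 and the median was -0.007; with both profiles centred on their autosomal medians, 3 of 4 were above 0 and the median was 0.032. Taken within the first table as the mean over all windows that contain the midpoint, the female difference of Rpt6 changed sign to -0.015, and the 7 other X-linked differences of both sexes kept theirs. The female median was 0.036, against 0.016 over all X-linked named genes, of which 67.0% were above 0. In H3K9R minus HWT females the same loci had a median of 0.017.

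At the autosomal subunit genes the timing differences were spread around 0. Over 28 genes the median of H4K16R minus HWT was -0.020 in males, with 18 below 0, and -0.005 in females, against -0.006 and 0.004 over all autosomal named genes. The male differences ran from -0.073 at Prosalpha2 to 0.055 at Prosalpha6 in the authors' deposited table. Among the 5 genes whose RNA rose in males, the timing difference was -0.057 at Prosbeta6, -0.037 at Rpn9, -0.037 at Rpn3, -0.007 at Prosbeta3 and 0.027 at Prosbeta5, so both signs occurred. Neighbouring genes share windows: Rpn12 and Prosbeta6 lie 25.4 kb apart and Rpn9 and Rpt5 19.4 kb apart, so their timing values are not separate measurements.

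Many paralogues lay in later-replicating DNA than the constitutive genes, a description without a test. In HWT males 27 of 28 autosomal constitutive genes had values above 0, where 81.6% of all autosomal named genes did, and their median exceeded 57.7% of those genes. Of the 16 paralogues 8 had values above 0. Ranked each within its own chromosome class, the paralogues exceeded a median of 21.3% of genes. The latest were Rpt6R, at -0.10 in H4K16R males and -0.161 in HWT males, and Prosbeta5R2, at -0.116 and -0.111 in the same groups of the authors' deposited table. The constitutive genes they are named after, Rpt6 and Prosbeta5, stood at 0.091 and 0.010 in HWT males. Not all paralogue values are separate measurements. Prosbeta4R1 and Prosbeta4R2 lie 1.47 kb apart, and Prosalpha1R lies 1.73 kb from the constitutive Prosalpha1.

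**Figure D5:**
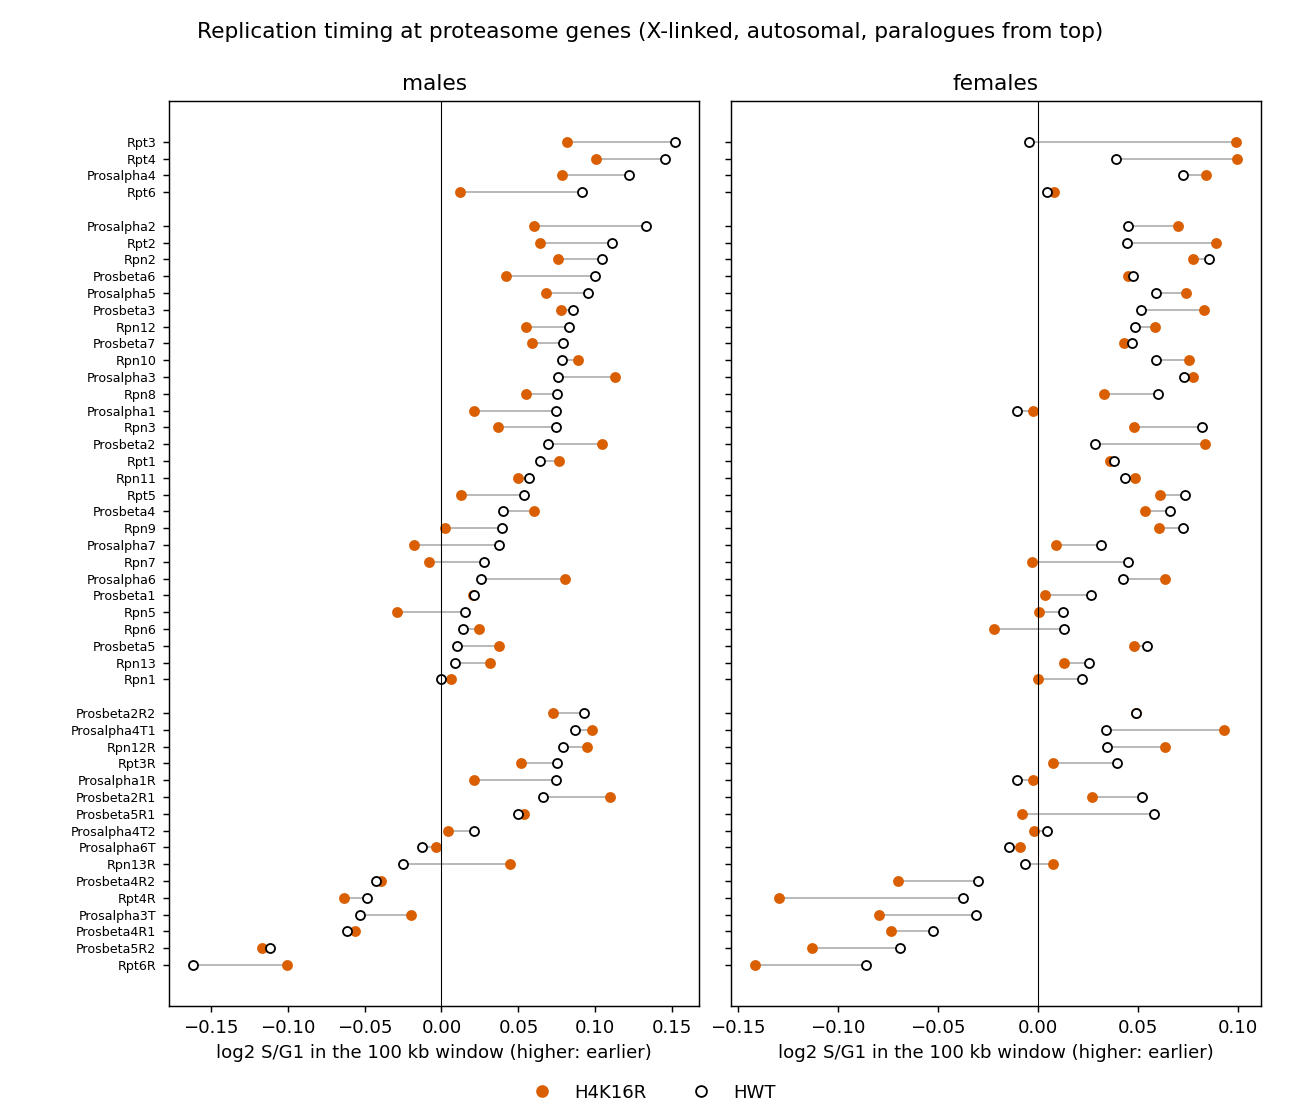
Replication timing (log2 S/G1, higher is earlier) at the 48 proteasome genes in H4K16R (orange) and HWT (open) discs of males (left) and females (right), with X-linked constitutive genes, autosomal constitutive genes and paralogues from the top, each sorted by the male HWT value. For the 4 X-linked genes at the top the orange points lie left of the open ones in males and, against the HWT profile of the same table, right of them in females.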

How the data were processed

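RNA-seq of 12 libraries and Repli-seq of 18 libraries were grouped by sample titles. The submitters' processing notes list the dm6 build and, with no role for each, edgeR, limma, bedtools, TopHat, SAMtools 1.6, Bowtie2 2.3.2 and Cufflinks 2.2.1. The authors deposited 1 table per sex with edgeR's log2 fold change and adjusted p-value per interval, per the file headers; the adjustment is not named and was taken as Benjamini-Hochberg. Library depth is unknown, so no counting interval can be given. Timing was deposited by the authors as 1 value per group in 100 kb windows every 10 kb. In the H4K16R female table it is a linear S/G1 ratio per the file headers and values, and its log2 was taken here; the other deposited timing tables were read as log2, since HWT female values of the H3K9R table regress on the log2 of the linear ones with a slope of 1.01 over 13388 windows. The HWT female profile differs between these 2 tables, and each difference was taken within its own table.

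The planned models per library were replaced by what the deposited values allow. Unadjusted p was recovered by multiplying the adjusted p by its rank and dividing by the number of entries, an upper bound in ties, and standard errors as the absolute fold change over the matching normal quantile. The effects in males and females were compared by a two-sided z test adjusted over 8996 genes named in both tables. Entry starts were read as 0-based. These steps were tested on simulated data. Full values were due to X-linked or called members and the extremes of each role group, and list genes were named where called. Other members and list genes, such as Prosalpha5, Prosbeta1, Rpn8, Rpn11 and Rpn13, were named after their values were seen. Members, lists and tests were chosen with earlier results of these data known. Alternatives were other thresholds, Holm adjustment, centring on autosomes, other overlap rules, larger errors and other timing windows. Promoter sequences were not used here. The work used matplotlib 3.10.9, scipy 1.17.1, pandas 2.3.3 and numpy 2.4.6 in Python 3.11.15.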

Additional observations from a re-analysis of the deposited data

Results flagged for a closer look

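The effect of H4K16R differed between males and females by the z test at 2 proteasome genes, both X-linked base ATPases. The male minus female log2 fold change was -0.63 for Rpt3 (male -0.62, female 0.013; adjusted p = 0.0047) and -0.45 for Rpt6 (male -0.43, female 0.015; adjusted p = 0.047). With standard errors inflated by 1.2 or with Holm adjustment neither was called, and Rpt6, whose entry shares 91.3% of its length with that of CG1801 in males, is not tested when overlapping entries are left out. The median of this difference over all 1507 X-linked named genes was -0.44. The female Rpt6 entry was matched to the gene at an overlap of 0.935. It shares 1471 bases with the entry of CG1801 and lies wholly inside another entry.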

How the results depend on the processing

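No paired analysis was possible because the deposited tables hold no value per library; for the same reason the replicate block, leaving out replicates, and other normalizations or filters were not run, nor was the promoter motif search. The 8 calls in males became 17 at an adjusted p under 0.1, 1 with a log2 change of at least 0.5, 0 with Holm adjustment and 4 without overlapping entries. In the same order the 5 autosomal rises became 14, 0, 0 and 2, and the 3 X-linked falls became 3, 1, 0 and 2. At an adjusted p under 0.01 there were 6 calls in males, 4 autosomal rises and 2 X-linked falls. The 2 differences between the sexes became 1 at an adjusted p under 0.01, 0 with Holm, 1 without overlapping entries and 0 with standard errors inflated by 1.2. Female calls stayed at 0 in every alternative run. Centring on the autosomal median shifts every value alike and keeps the deposited p; tested again after centring, an alternative chosen after seeing the data, 6 of the 8 calls in males and 3 of the 5 autosomal rises were left. Against the HWT profile of the H3K9R table, also chosen after seeing the data, the female timing median was -0.053 at autosomal and -0.007 at X-linked genes. The 2 profiles differ in their baseline, and with profiles centred on their autosomal medians these became -0.014 and 0.032. The absent depth and library spread limit every value.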
